A study of Mus musculus with 4 samples.

Results

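The serpins and the plasminogen activator system were measured in mouse embryonic fibroblasts (MEFs) with and without cyclins G1 and G2. Members were all genes whose name on the array began with Serpin, together with Plau, Plat and Plaur. This rule found 62 genes on 78 probes, of 31829 genes on 39429 probes in all, and used no measured value. MEFs came from C57BL/6J mice and were harvested in logarithmic growth phase in medium with fetal bovine serum. There was 1 array each for MEFs labelled G2KO (CycG2-/-) and G2WT (CycG2+/+), and 1 array each for the double knockout DKO (CycG1-/-CycG2-/-) and its wild type, labelled G1G2WT. The knockouts are constitutive deletions carried by the mice from which the MEFs were made, and a MEF preparation is a mixed culture of embryonic cells. With 1 array per group there was no replicate check, so the ratios below compare arrays and carry no p-value.

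Serpins are a protein family in which most members trap a serine protease by a conformational change that destroys both partners. The urokinase and tissue plasminogen activators Plau and Plat cut plasminogen into plasmin, which degrades fibrin and pericellular matrix. Plaur holds urokinase at the cell surface, and serpins such as Serpine2 and Serpinb2 inhibit the activators. Clade B serpins lack a secretion signal and mostly act inside cells, Serpinf1 (PEDF) and Serpinh1 (HSP47) are not protease inhibitors, and cultured fibroblasts are a classical source of HSP47.

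Signals are given as multiples of the 75th percentile of the array. Ccng1, the gene of cyclin G1, read 1.98 on the array labelled G2KO, 9.45 on that labelled G2WT, 1.66 on G1G2WT, and was dim on DKO, meaning that the scanner software did not call its spot well above background. Ccng2, the gene of cyclin G2, read 0.0910, 0.104, 0.0619 and 0.0806 on G2KO, G2WT, DKO and G1G2WT, so it separated neither knockout array from the wild types, and DKO, with Ccng1 dim and Ccng2 1.30-fold below its wild type, carries a label that its cyclin G2 value did not bear out. Whether this probe lies in the deleted part of Ccng2 is not given in the sources used here. Xist was well above background only on the array labelled G2WT, where the Y-linked genes Ddx3y and Eif2s3y were not. Embryo sex and genotype therefore cannot be told apart in the G2KO comparison. The study lists Xist, En2 and Sox2 as higher and Pdgfra as lower in G2KO MEFs, whereas the arrays as labelled gave log2 ratios of the opposite sign for all of these, -7.42 for Xist, -9.15 for En2, -8.49 for Sox2 and 7.93 for Pdgfra. The study attributes the higher Xist to the female origin of its G2KO MEFs. The labels G2KO and G2WT may thus be exchanged, which the files do not settle. The study's methods describe dye-swapped arrays for its G2KO comparison, whereas the arrays here are single-color. Its list may therefore come from other hybridisations than these. The arrays are named by their labels throughout, and every direction drawn from the G2KO comparison, or between the arrays labelled WT, depends on those labels. With the labels exchanged each log2 ratio of the G2KO comparison keeps its size and turns its sign. Between 64.7% and 72.2% of all genes were well above background on an array.

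Of the 62 members, 28 genes were well above background on all 4 arrays, 18 on some and 16 on none. On single arrays the number was 38 for that labelled G2KO, 31 for that labelled G2WT, 43 for DKO and 33 for G1G2WT. The scanner software gave a signal error of 10.0% to 22.2% for member probes above background, with a median of 10.2%. This error covers the spot and not the culture. Spots of 1 probe repeated on an array differed by a median SD of 0.0581 to 0.0929 on the log2 scale, whereas log2 ratios between the arrays labelled WT had an SD of 1.01 over all probes above background on all arrays.

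**Figure D1:**
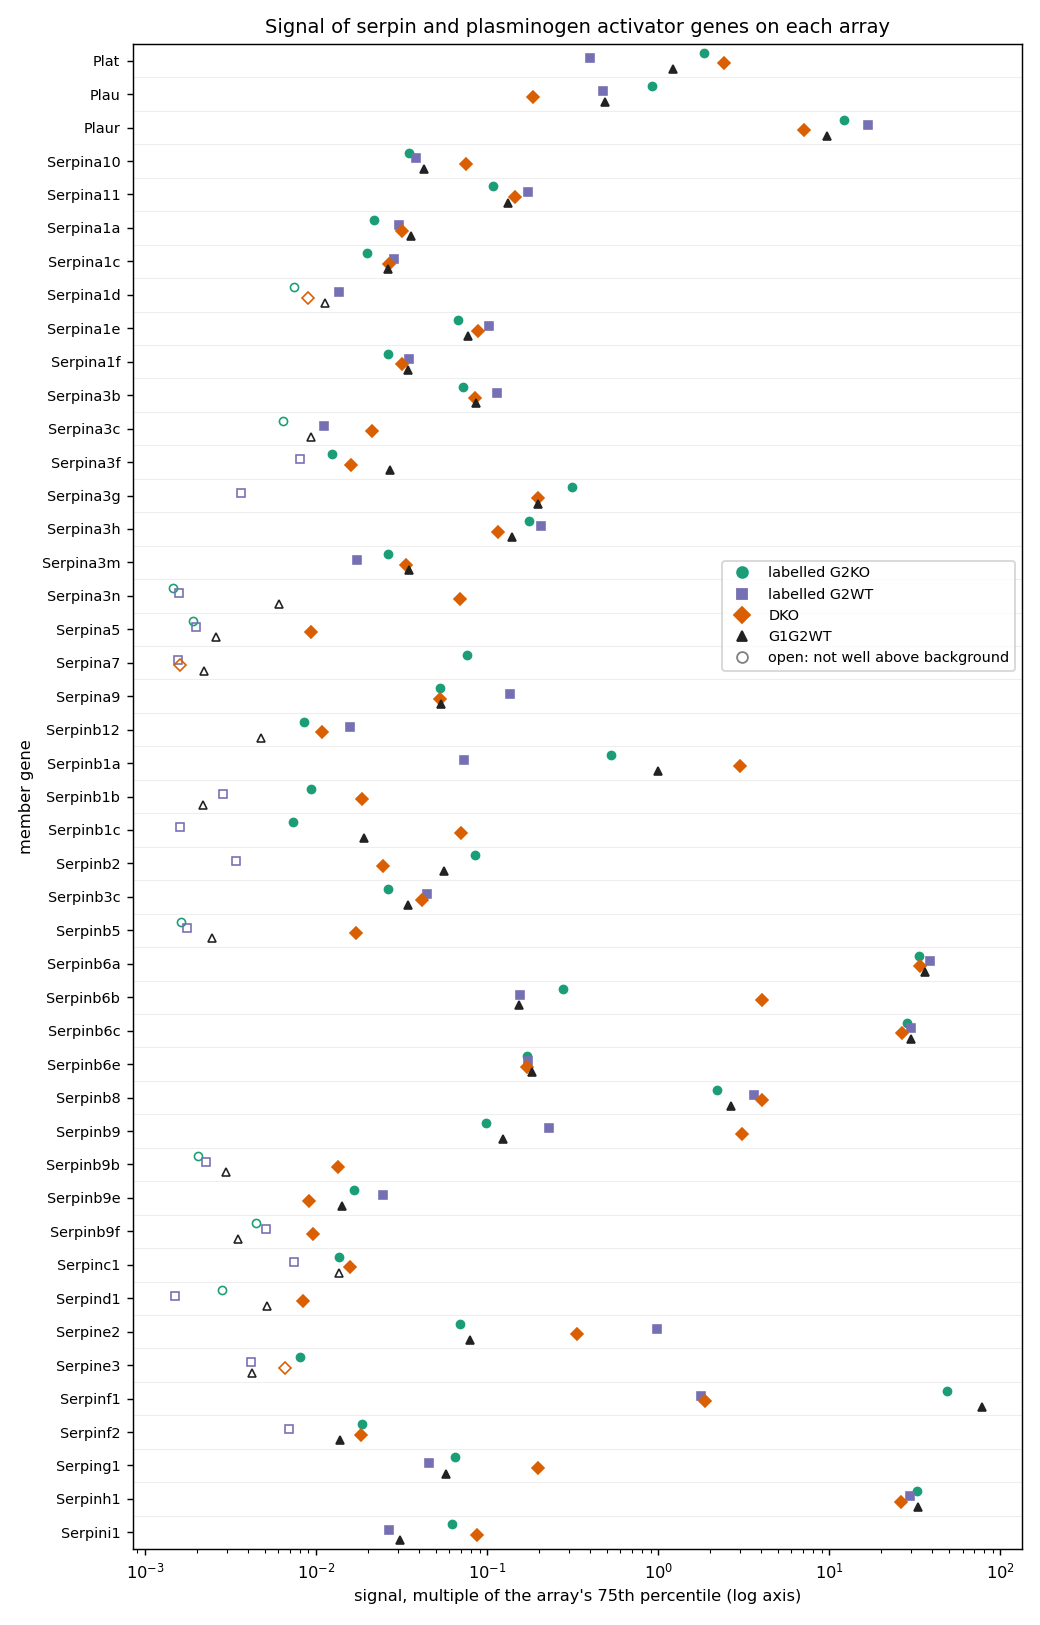
Signal of the members reported here that were well above background on at least 1 array, as multiples of the array's 75th percentile on a log axis; each symbol is 1 array and open symbols were not well above background. Serpinb6b and Serpinb9 stood out on DKO, whereas Serpinf1 was low on DKO and on the array labelled G2WT.

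A gene was counted as changed when the arrays differed at least 4-fold. Between the arrays labelled G2KO and G2WT, 6 of the 40 members tested were higher, where 3.71% of all 22813 genes were, and 1 was lower, where 2.02% of all genes were. The 6 were Plat, Serpina3g, Serpina7, Serpinb1a, Serpinb2 and Serpinf1, and the lower gene was Serpine2. In DKO against G1G2WT, 4 of 43 members were higher, where 3.93% of 23547 genes were, and 1 was lower, where 3.91% were. Serpina3n, Serpinb6b, Serpinb9 and Serpine2 were the higher genes and Serpinf1 the lower one. The arrays labelled WT differed from each other at a like rate: 4 of 36 members were higher on G1G2WT than on G2WT and 1 was lower, where 4.55% and 2.71% of 22544 genes were. Over members measured on both arrays of a comparison, the median log2 ratio was -0.42 in the G2KO comparison and -0.03 in DKO, beside -0.17 and -0.02 over all genes. Of these members, 22 of 29 and 23 of 33 were within 2-fold, where 86.3% and 83.1% of all genes measured on both arrays were. With the labels G2KO and G2WT exchanged, 1 of the 40 members was higher and 6 were lower in the G2KO comparison, and between the arrays then labelled WT 1 of 38 members passed 4-fold in place of 5, Serpina7.

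**Figure D2:**
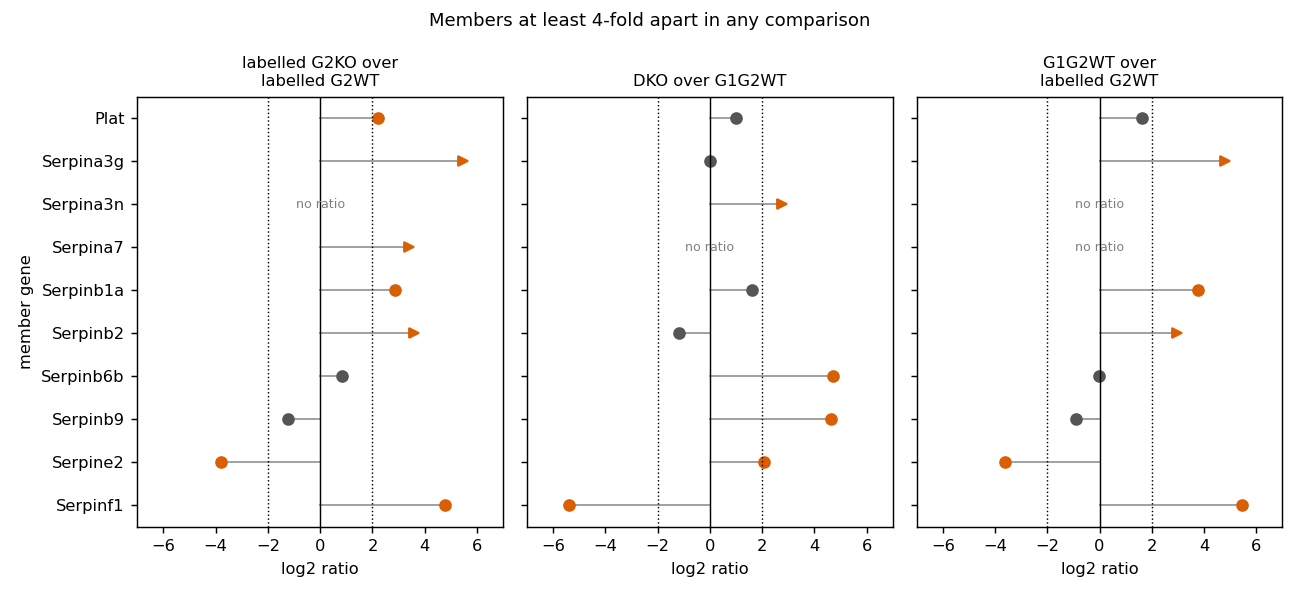
Log2 ratios of the 10 members at least 4-fold apart in any comparison (orange; dotted lines mark 4-fold); circles were measured on both arrays and arrowheads are lower limits because the other array was not well above background. As labelled, Serpinf1 and Serpine2 pointed in opposite directions in the knockout comparisons and differed at least 4-fold between the arrays labelled WT. With the labels G2KO and G2WT exchanged, each pointed the same way in both knockout comparisons. Serpinb2 and Serpinb9 also pointed in opposite directions as labelled. Plat, Serpinb1a and Serpinb6b pointed the same way as labelled and would point in opposite directions with the labels exchanged.

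The activators ordered the arrays differently, and their receptor varied least of the 3. Plat, the tissue-type activator, read 1.86 on the array labelled G2KO, 0.399 on that labelled G2WT, 2.41 on DKO and 1.22 on G1G2WT. It was 4.65-fold higher on the array labelled G2KO than on that labelled G2WT (log2 ratio 2.22) and 1.97-fold higher on DKO than on G1G2WT, and the array labelled G2WT was the lowest of the 4. Plau, the urokinase activator, read 0.921, 0.477, 0.185 and 0.489 in the same order. The arrays labelled WT agreed on Plau to within 1.03-fold, while DKO lay 2.64-fold below its wild type and the array labelled G2KO 1.93-fold above its own, both under the 4-fold limit. Plaur, the urokinase receptor, read 12.1, 16.8, 7.09 and 9.64. Its log2 ratio was -0.48 in the G2KO comparison and -0.44 in DKO, each smaller than the difference of -0.80 between the arrays labelled WT.

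Among the inhibitors of the activators, Serpine2, also called protease nexin-1, which inhibits thrombin and urokinase at the cell surface, read 0.0696 on the array labelled G2KO, 0.978 on that labelled G2WT, 0.334 on DKO and 0.0793 on G1G2WT. It was 14.1-fold lower on the array labelled G2KO than on that labelled G2WT (log2 ratio -3.81) and 4.21-fold higher on DKO than on G1G2WT (2.07). The arrays labelled WT differed 12.3-fold, and the array labelled G2KO and G1G2WT were close together. With the labels G2KO and G2WT exchanged, the log2 ratio of the G2KO comparison was 3.81, on the same side as in DKO. The DKO value was under 4-fold, at 1.69 on the log2 scale, after normexp background correction, and it was also under 4-fold without scaling. Against the array labelled G2WT it was -1.55. In bulk cultures, fewer cells that make a transcript and less RNA per cell cannot be told apart.

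The sequence behind the Serpine2 value is shown because its 60 bases cross an exon junction: on mm9 the probe covers chr1:79793476-79796093 on the minus strand, 2618 bases of genome, so it reads spliced RNA. It is in lower case, 5′ to 3′.
Serpine2 probe: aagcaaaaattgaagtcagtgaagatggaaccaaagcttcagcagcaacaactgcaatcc

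Serpinb2, a clade B serpin that is secreted in part, read 0.0851 on the array labelled G2KO, 0.0245 on DKO and 0.0560 on G1G2WT, and was dim on that labelled G2WT. Taking the array labelled G2WT as the reference, it was at least 11.9-fold up on G2KO and at least 7.82-fold up on G1G2WT, while DKO was 2.29-fold below its wild type. After normexp correction the log2 value for the array labelled G2KO was 1.44, and that for DKO against its wild type was -0.39 in place of -1.19. Serpine3 was well above background only on the array labelled G2KO, where it read 0.00808. Serpinf2, the plasmin inhibitor alpha2-antiplasmin, read 0.0184, 0.0183 and 0.0138 on G2KO, DKO and G1G2WT and was dim on G2WT.

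Serpinf1 encodes PEDF, a secreted protein that inhibits blood vessel growth and does not inhibit proteases. It read 48.5 on the array labelled G2KO and 78.0 on G1G2WT, but 1.78 on the array labelled G2WT and 1.87 on DKO. The arrays therefore fell into a high and a low pair that did not follow the genotype labels as given. With the labels G2KO and G2WT exchanged, the high pair held both wild types and the low pair both knockouts. DKO was 41.7-fold lower than G1G2WT (log2 ratio -5.38), and the array labelled G2KO was 27.2-fold higher than that labelled G2WT (4.76, or -4.76 with the labels exchanged). The arrays labelled WT differed 43.7-fold, and DKO differed from the array labelled G2WT by 0.07 on the log2 scale. A second Serpinf1 probe, 5.581 kb away on the chromosome, read 9.93, 0.299, 0.282 and 17.3, with log2 ratios of 5.05 and -5.94. Genes next to Serpinf1 on chromosome 11 did not share the pattern. In DKO against its wild type, Smyd4 had a log2 ratio of 0.28, Serpinf2 of 0.41 and Wdr81 of 0.40.

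The second Serpinf1 probe lies at chr11:75229163-75229222 on the minus strand of mm9, and it is shown with the RefSeq promoter of the gene, at chr11:75422574-75422873 on the minus strand of GRCm38.p6, as this member had the largest ratio in DKO. Promoters here run from 250 bases before to 50 bases after the RefSeq start. Capitals in the promoter mark matches to any of 7 motifs searched on both strands. These were the TATAAA box, the GC box as GGGCGG, the CCAAT box, the AP-1 site as TGANTCA, the interferon response spacing GAAANNGAAA, the Smad-type motif CAGACA, and the E-box spelled CACGTG. None of these spellings contains another.
Serpinf1 probe: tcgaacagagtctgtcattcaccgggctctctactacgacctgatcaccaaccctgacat
Serpinf1 promoter: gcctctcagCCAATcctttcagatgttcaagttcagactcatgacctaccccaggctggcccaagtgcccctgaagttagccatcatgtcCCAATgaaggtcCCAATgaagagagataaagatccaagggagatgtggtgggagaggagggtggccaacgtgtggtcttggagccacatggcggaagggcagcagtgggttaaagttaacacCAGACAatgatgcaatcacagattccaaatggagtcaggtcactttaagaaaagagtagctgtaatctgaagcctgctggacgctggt
This promoter held CCAAT 3 times and CAGACA 1 time and no TATAAA, and its GC content was 50.7%, beside a median of 52.7% over 32851 promoters. CCAAT was found in 37.4% of all promoters and CAGACA in 21.0%.
The Serpine2 promoter, at chr1:79858616-79858915 on the minus strand of GRCm38.p6, stands beside it because Serpine2 had the opposite sign to Serpinf1 within each knockout comparison, under either reading of the labels.
Serpine2 promoter: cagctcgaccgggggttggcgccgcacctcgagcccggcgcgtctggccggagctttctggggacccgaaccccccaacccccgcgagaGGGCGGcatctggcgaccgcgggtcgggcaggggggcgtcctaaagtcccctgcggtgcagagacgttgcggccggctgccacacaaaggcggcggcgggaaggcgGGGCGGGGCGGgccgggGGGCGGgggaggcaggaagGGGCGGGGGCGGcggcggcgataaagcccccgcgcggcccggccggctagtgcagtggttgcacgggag
It held 6 matches to GGGCGG, some of them overlapping, a motif present in 35.7% of all promoters. Its GC content was 77.7%, higher than that of 97.9% of promoters. A match says only that these letters are in the window.

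Fibroblast marker genes moved with Serpinf1 in part. The 12 markers summed to 518 on the array labelled G2KO, 403 on that labelled G2WT, 410 on DKO and 600 on G1G2WT. On DKO 5 of 12 were at least 4-fold lower than on its wild type and 1 was higher, where 3.91% and 3.93% of all genes were. Thy1, a fibroblast surface marker, read 53.1, 0.461, 3.42 and 61.5, and the matrix gene Postn read 10.9, 0.566, 0.116 and 21.6. Pdgfra read 1.75 on the array labelled G2KO, 0.0296 on DKO and 5.22 on G1G2WT and was dim on that labelled G2WT. Thy1, Postn and Pdgfra were thus high on the arrays where Serpinf1 was high. Others in the list did not follow it. Dcn, the matrix proteoglycan decorin, read 0.757, 0.0722, 49.0 and 2.95, so it was 16.6-fold higher on DKO than on its wild type. S100a4 read 124, 113, 16.2 and 104 and Pdgfrb 8.04, 5.44, 0.957 and 12.6, low on DKO and not on the array labelled G2WT. Vim, Fn1 and Col1a1, which mesenchymal cells share, were within 2-fold on all arrays. Neural progenitor and glial markers summed to 45.3 on the array labelled G2WT and to between 1.29 and 2.21 on the others, with Nes at 28.0, En2 at 14.8 and Sox2 at 2.37 there. The part of these differences in the Serpinf1 and Serpine2 values was not tested.

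**Figure D3:**
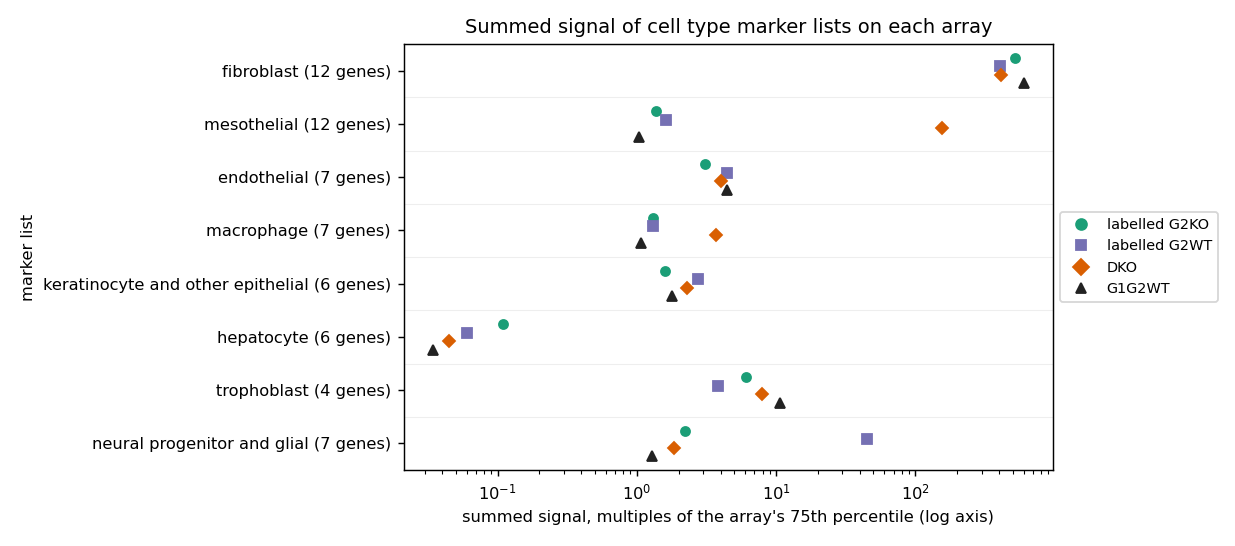
Summed signal of each marker list on each array, as multiples of the array's 75th percentile on a log axis, with probes not well above background counted at their own signal. The mesothelial list stood at 156 on DKO against 1.04 to 1.61 elsewhere, and the neural list at 45.3 on the array labelled G2WT.

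Of the 3 members that set DKO apart from every other array, 2 were neighbours in the clade B cluster on chromosome 13. Serpinb6b, a granzyme A inhibitor of the mouse, read 4.01 on DKO and 0.276, 0.156 and 0.153 on the arrays labelled G2KO, G2WT and G1G2WT. It was 26.2-fold higher on DKO than on its wild type (log2 ratio 4.71), and 14.5-fold higher than on the next array, while the other arrays lay within 1.80-fold of each other. Serpinb9, which inhibits granzyme B and so protects cells from cytotoxic lymphocytes, read 3.07 on DKO and 0.0979, 0.230 and 0.124 on the others. It was 24.8-fold higher than on G1G2WT (4.63) and 13.4-fold higher than on the next array. Both stayed between 4.30 and 4.82 on the log2 scale under the scalings and background corrections tried. DKO was at least 4-fold above each other array for 3 of the 46 members above background, where it was for 2.48% of 24495 genes. The third was Serpina3n, an acute-phase serpin of clade A, which read 0.0690 on DKO and was not well above background elsewhere, so it was at least 6.73-fold higher than on G1G2WT. With normexp correction Serpina3n gave 1.42 on the log2 scale.

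Other genes at this end of the cluster were also highest on DKO, mostly by less than 4-fold. Serpinb1a, an inhibitor of neutrophil elastase and cathepsin G, read 3.02 on DKO, 0.991 on G1G2WT, 0.531 on the array labelled G2KO and 0.0731 on that labelled G2WT, so it was 3.05-fold higher on DKO than on its wild type and 7.27-fold higher on the array labelled G2KO than on that labelled G2WT. The arrays labelled WT differed 13.6-fold for this gene. Serpinb1c read 0.0701 on DKO and 0.0191 on G1G2WT (log2 ratio 1.88). A transcript without a gene symbol between Serpinb1c and Serpinb6b read 0.552 on DKO, with a log2 ratio of 3.78 against its wild type. The window of 1211 kb from Wrnip1 to Ripk1 held 14 members, of which 10 had a measured ratio or a limit for DKO against its wild type and 2 were at least 4-fold higher, Serpinb6b and Serpinb9, where 3.93% of all genes were. Beyond Serpinb9, Serpinb9b was well above background only on DKO, at 0.0134, and Serpinb1b read 0.0184 on DKO and 0.00937 on the array labelled G2KO and was dim on the others, with limits of 1.31-fold and 1.79-fold for DKO over its wild type. Serpinb9e, in the same stretch, was lowest on DKO. It read 0.0165, 0.0245, 0.00902 and 0.0141 on G2KO, G2WT, DKO and G1G2WT, with a log2 ratio of -0.64 for DKO against its wild type. Serpinb9c, Serpinb9d and Serpinb9g were not well above background on any array, and Serpinb9f, near background on DKO, gave no ratio. The flanking genes Wrnip1 and Ripk1 had log2 ratios of -0.44 and -0.10, and Serpinb6a and Serpinb6c at the far end had -0.10 and -0.17.

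**Figure D4:**
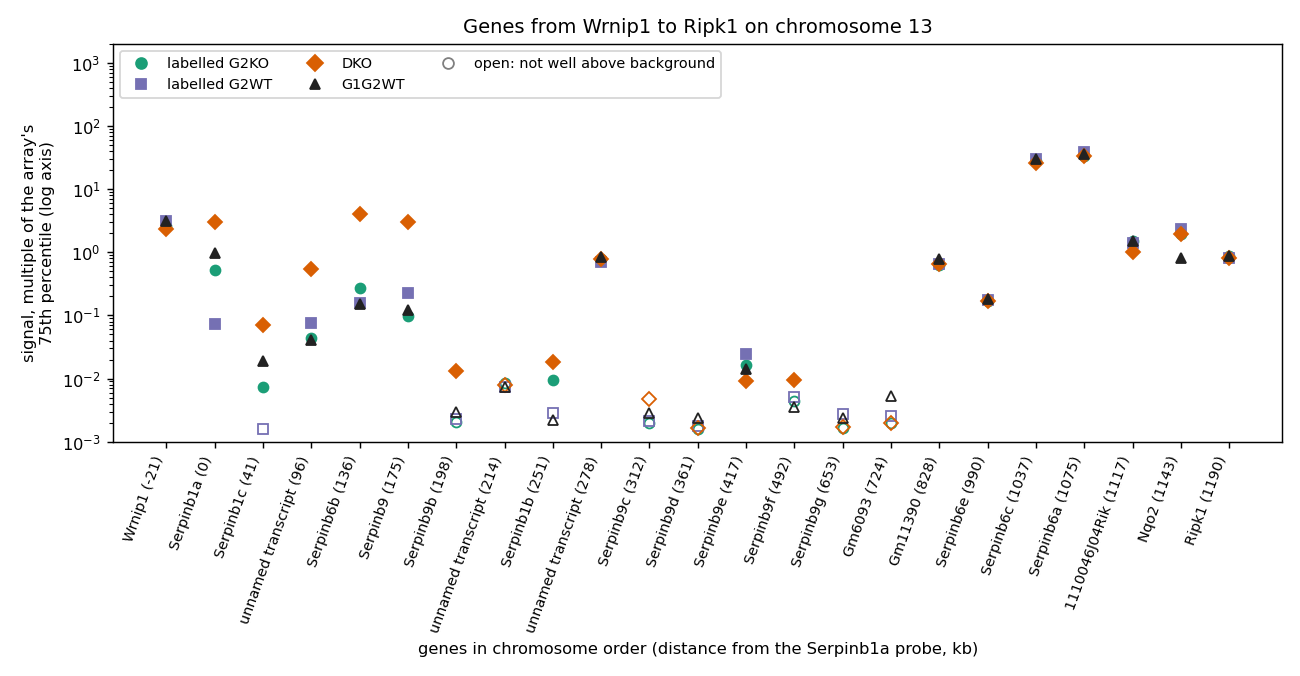
Signal of each gene or transcript from Wrnip1 to Ripk1 on chromosome 13 in mm9 order, as multiples of the array's 75th percentile on a log axis, with the distance of its probe from that of Serpinb1a in kb; open symbols were not well above background. DKO lay above the other arrays from Serpinb1a to Serpinb9, and the arrays coincided at Serpinb6e, Serpinb6c and Serpinb6a.

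The probes of Serpinb6b and Serpinb9 lay 39.0 kb apart, at chr13:33070776-33070835 and chr13:33109767-33109824 on the plus strand of mm9. Their RefSeq promoters, at chr13:32965011-32965310 and chr13:33004291-33004590 on the plus strand of GRCm38.p6, are shown because both genes were far higher on DKO than on every other array. In the G2KO comparison their log2 ratios were 0.82 and -1.23. Capitals mark matches to the 7 motifs named for Serpinf1.
Serpinb6b promoter: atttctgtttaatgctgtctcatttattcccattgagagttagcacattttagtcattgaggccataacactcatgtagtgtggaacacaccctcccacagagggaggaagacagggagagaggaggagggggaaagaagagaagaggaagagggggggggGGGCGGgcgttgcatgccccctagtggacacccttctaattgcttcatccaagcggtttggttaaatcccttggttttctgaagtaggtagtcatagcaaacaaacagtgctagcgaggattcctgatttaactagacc
Serpinb9 promoter: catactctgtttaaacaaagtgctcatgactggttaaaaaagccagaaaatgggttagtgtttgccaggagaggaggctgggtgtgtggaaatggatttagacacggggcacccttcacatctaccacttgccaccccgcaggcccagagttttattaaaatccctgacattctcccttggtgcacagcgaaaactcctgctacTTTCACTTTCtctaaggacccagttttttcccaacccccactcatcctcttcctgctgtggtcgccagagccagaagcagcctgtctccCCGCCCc
The Serpinb6b promoter held GGGCGG 1 time and none of the other motifs. The Serpinb9 promoter held GGGCGG 1 time, on the opposite strand, and GAAANNGAAA 1 time, also on the opposite strand. GAAANNGAAA was found in 3.44% of all promoters and in 3 of the 57 member promoters. Over the members, TATAAA was in 31.6% of promoters and TGANTCA in 21.1%, beside 13.6% and 7.81% of all promoters. GGGCGG was in 15.8% and CACGTG in 0.0% of member promoters, beside 35.7% and 7.15% of all promoters, and CCAAT and CAGACA in 31.6% and 17.5%. Many member genes are close copies of each other. Of the 62 members, 49 had a promoter in the table.

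Mesothelial markers moved with Serpinb6b and Serpinb9. The 12 markers summed to 156 on DKO and to between 1.04 and 1.61 on the other arrays. Of these markers, 11 of 12 were at least 4-fold higher on DKO than on its wild type, where 3.93% of all genes were. The other, Cldn1, was dim on DKO and read 0.441 on G1G2WT, at least 56.5-fold lower on DKO. Msln read 100 on DKO and 0.492 on G1G2WT. Upk1b, Wt1 and Krt18 read 9.74, 8.96 and 24.7 on DKO, and none of the 3 was well above background on G1G2WT. Macrophage markers, which could bring in Serpinb9 as well, summed to 3.71 on DKO and to between 1.08 and 1.30 elsewhere. Cd14, 1 of 7, was at least 4-fold higher on DKO than on its wild type (2.88 against 0.348), where 3.93% of all genes were. Ptprc, the pan-leukocyte marker, read 0.0188 on DKO and 0.0368 on its wild type. The part of other cell types in the Serpinb6b and Serpinb9 values was not tested.

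Serpinh1, the chaperone that guides procollagen folding, was level across the arrays, with 32.6, 29.7, 26.1 and 33.1 and log2 ratios of 0.13 and -0.34 in the G2KO and DKO comparisons. Its 17 collagen folding partners were above background on every array. In the G2KO comparison 1 of them, Col3a1, was at least 4-fold higher, where 3.71% of all genes were. Col3a1 read 24.4, 1.77, 8.99 and 30.0. The median log2 ratio of the 17 partners was 0.41 in the G2KO comparison and -0.25 in DKO. Serpinb6a, an intracellular inhibitor with broad expression, read 33.6, 38.5, 33.7 and 36.0, a range of 1.14-fold. Serpinb6c read 28.3, 29.9, 26.4 and 29.8, a range of 1.13-fold. Serpinb8, a furin inhibitor, read 2.20, 3.61, 4.04 and 2.66, with a log2 ratio of 0.60 for DKO. Serpinh1, Serpinb6a, Serpinb6c and Serpinb8 did not reach 2-fold in either knockout comparison.

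The Serpinb6a and Serpinb6c values are uncertain as separate measurements. The Serpinb6c probe behind the values above matched that of Serpinb6a in 39 of 42 overlaid bases. A second Serpinb6c probe, not used in the counts, matched it in 55 of 59, and the stretch of 30 bases with all the differences of this pair is shown, with differing bases in capitals.
Serpinb6a probe, bases 20 to 49: tgcaatgGcaATtatgaaataaagggcttT
Serpinb6c second probe, bases 21 to 50: tgcaatgAcaGCtatgaaataaagggcttA
Other close probe pairs were Serpinb9g and Serpinb9f (52 of 59 bases), Serpina1c and Serpina1a (50 of 51), and Serpina1c and Serpina1e (49 of 59). The probe of Serpinb6e matched the second Serpinb6c probe in 46 of 56. The accessions of 4 member probes also named other genes, namely those of Serpina1c, Serpina1d, Serpinb9f and 1 of Serpina3h. Values of these genes may hold signal of their copies. The second Serpinb6c probe, which shares 43 bases with the one used, read 13.5, 12.2, 12.8 and 13.2.

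Clade A holds many of the serpins that the liver secretes into plasma. Of its 22 genes, 10 were above background on all arrays and 17 on at least 1. Serpina3g, an intracellular cathepsin inhibitor of the Serpina3 cluster, read 0.313 on the array labelled G2KO, 0.199 on DKO and 0.198 on G1G2WT and was dim on that labelled G2WT. The difference between the arrays labelled G2KO and G2WT was at least 43.8-fold, but DKO and its wild type had a log2 ratio of 0.00. Serpina7, the thyroxine-binding globulin, was well above background only on the array labelled G2KO, at 0.0764, at least 10.7-fold above the array labelled G2WT. With normexp correction the log2 values of Serpina3g and Serpina7 were 2.80 and 1.44. The Serpina1 genes, which encode alpha1-antitrypsin, did not reach 2-fold in either knockout comparison for Serpina1a, Serpina1c, Serpina1e and Serpina1f with the probes used, while a second Serpina1a probe had a log2 ratio of -1.08 in the G2KO comparison, and Serpina1d was well above background only on the array labelled G2WT. The probes of Serpina3h disagreed: the one used had a log2 ratio of -0.22 in the G2KO comparison, and the other was dim on G2WT, with a limit of 2.16. Hepatocyte markers summed to at most 0.110 on any array, and Alb and Ttr were not above background on any. Afp was above background on the arrays labelled G2KO and G2WT, at 0.0820 and 0.0280, 2.92-fold higher on the former, the array on which Serpina7 was seen, and Apob on all arrays but G1G2WT, at 0.0187, 0.0115 and 0.0146. Hnf4a was well above background only on the array labelled G2WT, at 0.0124, and Apoa1 only on DKO, at 0.0088. No hepatocyte marker passed 4-fold in the G2KO comparison. The part of other cell types in the Serpina7 value was not tested.

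Serping1, the C1 inhibitor, read 0.0646, 0.0454, 0.198 and 0.0575 and was 3.44-fold higher on DKO than on its wild type (log2 ratio 1.78). Its second probe read 0.110 on DKO and 0.0127 on G1G2WT, a log2 ratio of 3.11, so this gene passed 4-fold with that probe and with the median of its probes. In the G2KO comparison the probe used had a log2 ratio of 0.51, while the second probe read 0.0366 and was dim on the array labelled G2WT, with a limit of 2.35, and the median of its probes gave 2.50. The complement proteases that it inhibits, C1ra and C1s, read 5.81 and 6.76 on DKO and 3.29 and 4.05 on G1G2WT. Serpini1, or neuroserpin, an inhibitor of the tissue activator, read 0.0623, 0.0267, 0.0866 and 0.0308, with log2 ratios of 1.22 and 1.49. As labelled, Serpini1 was higher on both knockout arrays by under 4-fold. With the labels G2KO and G2WT exchanged, the first of these ratios turns its sign and the 2 comparisons point in opposite directions. Serpinc1 (antithrombin) read 0.0135 on the array labelled G2KO and 0.0158 on DKO and was dim on the arrays labelled G2WT and G1G2WT. Serpind1 (heparin cofactor II) and Serpinb5 (maspin) were well above background only on DKO, at 0.00836 and 0.0170. Serpina12, Serpina3a, Serpina3k, Serpina4-ps1, Serpina6, Serpinb3a, Serpinb3b, Serpinb3d, Serpinb7, Serpinb9c, Serpinb9d, Serpinb9g, Serpinb10, Serpinb11, Serpinb13 and Serpini2 were not well above background on any array, with the probe used.

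The other genes of the system were taken from lists. Of 18 plasminogen system partners on the array, 15 were tested in the G2KO comparison and 2 were higher, where 3.71% of all genes were, Mrc2 at 3.29 on the log2 scale, the uPARAP collagen receptor, and Tfpi2, with a limit of 3.48. In DKO, 1 of 13 was higher, where 3.93% were, Tfpi, the tissue factor pathway inhibitor, at 2.53 against 0.270 (log2 ratio 3.23), and none was lower. Plg, the plasminogen gene, was not well above background on any array. Lrp1, the receptor that clears activator and inhibitor complexes, read 12.9, 21.5, 16.7 and 18.0, and the plasminogen receptor Anxa2 read 98.5, 110, 108 and 108. The median log2 ratio of the partners tested was -0.12 in the G2KO comparison and -0.22 in DKO, beside -0.17 and 0.01 over all genes, limits included.

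Of the proteases that serpins inhibit or bind, 22 were tested. For the array labelled G2KO 1 was lower, Klk8, with a limit of -3.47, where 2.02% of all genes were lower. In DKO 5 were lower and 2 higher, where 3.91% and 3.93% of all genes were, with a median of -0.17. The lower ones were Htra1 (5.81 against 45.8), Prss23, Prss35, Masp1 and Masp2, the last 2 being lectin pathway proteases, and the higher ones were St14 (matriptase, 0.174 against 0.0190) and Klk8. Gzmb, the granzyme that Serpinb9 inhibits, was well above background on DKO and on the array labelled G2WT only, at 0.00837 and 0.0171. Of 5 thrombin and coagulation receptors tested, Thbd, Procr and F2rl1 were higher on the array labelled G2KO, where 3.71% of all genes were. Thbd was lower on DKO (0.0850 against 0.846, log2 ratio -3.32), where 3.91% of all genes were. Of these, only F2rl1 was at least 4-fold higher on G1G2WT than on the array labelled G2WT (log2 ratio 4.01), where 4.55% of all genes were. Thbd and Procr were higher on G1G2WT by less than 4-fold, with log2 ratios of 1.96 and 1.02. F2rl1 was dim on G2WT, so its ratio is a limit, and it read 0.121, 0.118 and 0.116 on G2KO, DKO and G1G2WT. Thbd read 0.988 on G2KO and 0.217 on G2WT. Of 8 genes that respond to TGF-beta, Tgfbi, Ltbp2 and Tagln were lower on DKO, where 3.91% of all genes were. Their log2 ratios were -5.19, -2.55 and -3.50, while Ctgf stood at 0.06. Tgfbi and Ltbp2 were higher on the array labelled G2KO, where 3.71% of all genes were, at 4.71 and 7.27, and Thbd was at 2.19. With the labels G2KO and G2WT exchanged these became -4.71, -7.27 and -2.19, on the same side as in DKO. Other listed genes had the same sign in the G2KO and DKO comparisons as labelled, and would have opposite signs with the labels exchanged. Among them were Procr (2.01 and 1.72), Tfpi (1.65 and 3.23), Dcn (3.39 and 4.05) and Krt19 (4.18 and 4.32).

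**Figure D5:**
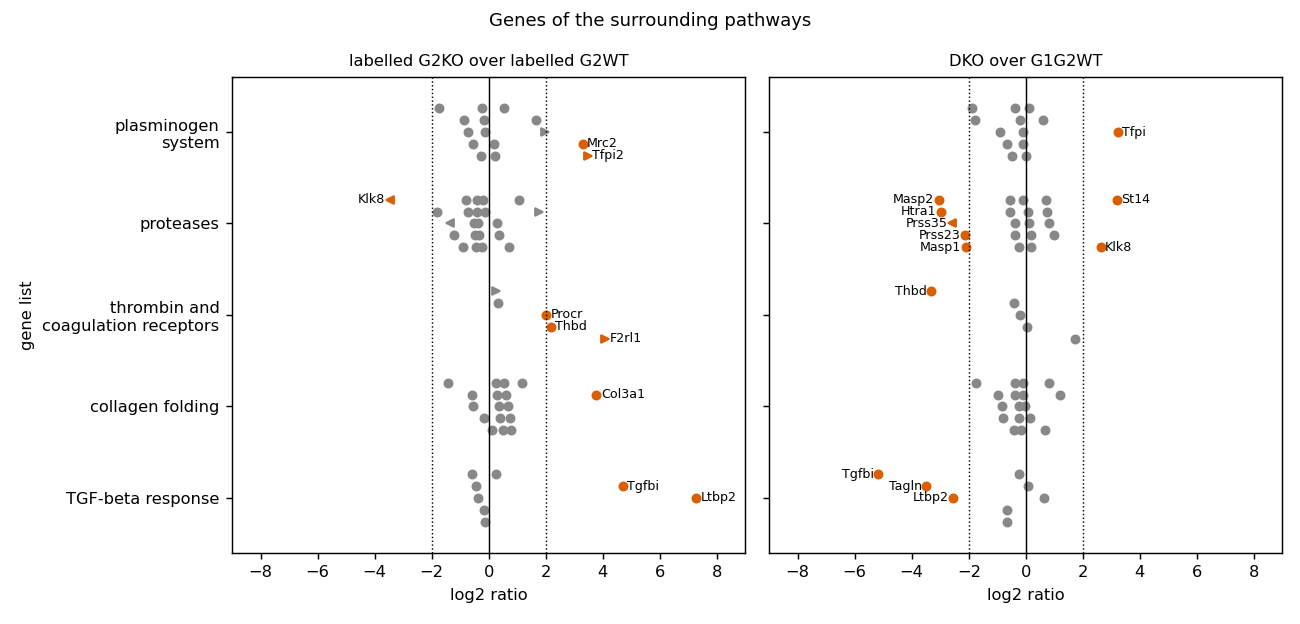
Log2 ratios of the genes in 5 lists around the serpins, for the array labelled G2KO over that labelled G2WT (left) and DKO over G1G2WT (right); each point is 1 gene, arrowheads are limits, and genes at least 4-fold apart (dotted lines) are orange and named. Tgfbi, Ltbp2 and Thbd lay on opposite sides in the panels as labelled, and would lie on the same side with the labels G2KO and G2WT exchanged. Procr and Tfpi lay on the same side as labelled, and would lie on opposite sides with the labels exchanged.

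The choice of wild type decided many of the calls. Against G1G2WT, the array labelled G2KO had 1 member past 4-fold in place of 7, Serpina7, and Serpinf1 and Serpinb1a turned to -0.69 and -0.90 on the log2 scale. Against the array labelled G2WT, DKO had 8 members higher and none lower, among them Serpinb6b, Serpinb9 and Serpina3n, the 3 calls shared with the comparison to its own wild type. The Serpinf1 and Serpine2 calls were not among them.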

How the data were processed

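Cy3-labelled cRNA made from total RNA (Low Input Quick-Amp kit) was hybridised to 4 single-color Agilent mouse arrays on 1 slide. The authors extracted each spot's intensity with Agilent Feature Extraction (10.7.3.1 in the file headers, 10.5.1.1 in the submitters' processing notes), which subtracts background; the deposited value table holds the same intensity (largest log2 difference 0.0) and 0 of its columns were left unused. Control spots and 107 to 140 outlier spots per array, of 43020, were left out, and no spot was saturated. The log2 of the deposited intensity was set relative to the array's 75th percentile (2233.61, 1586.21, 1777.09 and 1876.84 for G2KO, G2WT, DKO and G1G2WT).

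Probes dim on both arrays of a comparison were left out. The signal of a dim side was raised, where it was lower, to the floor of its array, the lowest signal of any probe well above background there (14.74, 11.36, 12.98 and 19.23), giving a lower limit; limits under 1 were given no fold. Each gene was represented by its brightest probe (mean log2 signal over the arrays). Each group has 1 array, so no test was made, and this number limits the precision. Members, gene lists and tests were chosen with earlier results of these data known. Genes named were fixed members of the system, members with high signal, members and listed genes past 4-fold, members above background nowhere, and label checks. Others were added after their values were seen: C1ra, C1s, Gzmb, Lrp1, Anxa2, Ctgf, Ptprc, Dcn, S100a4, Pdgfrb, Cldn1, Afp, Apob, Hnf4a, Apoa1, Serpinb1b, Serpinb1c, Serpinb6c, Serpinb6e, Serpinb9b, Serpinb9e, Serpinb9f, Serpinb9c, Serpinb9d and Serpinb9g beside other results, as well as the neighbours Wrnip1, Ripk1, Smyd4 and Wdr81. Probe positions are mm9 from the files; 72 of 78 member probes had their transcript in a GRCm38.p6 table. Promoters are from RefSeq. The fold calculation was tested on simulated data, with changes larger than 4-fold put into bright probes only. Recovery of changes in dim probes was not tested. Python 3.11.15, numpy 2.4.6, pandas 2.3.3 and limma 3.58.1 in R 4.3.3 (normexp, offset 50) were used. Groups came from the sample descriptions. Alternatives were normexp correction, median, quantile or no scaling, the deposited table, other filters, probes or thresholds, outlier spots kept, the other wild type or the mean of both as control, and the labels G2KO and G2WT exchanged. A withheld member is counted in the totals and not reported here.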

Additional observations from a re-analysis of the deposited data

Results flagged for a closer look

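Serpinf1 and Serpine2 passed 4-fold in both knockout comparisons, in opposite directions as the arrays are labelled. For Serpinf1 the log2 ratio of DKO minus that of the array labelled G2KO was -10.15 (-5.38 and 4.76), and for Serpine2 it was 5.89 (2.07 and -3.81). With 1 array per group the difference was not tested. The labels G2KO and G2WT may be exchanged. With them exchanged the log2 ratios were -4.76 and -5.38 for Serpinf1 and 3.81 and 2.07 for Serpine2, the same direction in both comparisons, and the difference between the arrays labelled WT became one between a knockout and a wild type. Not all members came together in this way. Plat (2.22 and 0.98) and Serpinb1a (2.86 and 1.61) were higher in both comparisons as labelled, and would point in opposite directions with the labels exchanged. Without the array labelled G2WT, against G1G2WT, the array labelled G2KO had log2 ratios of -0.69 for Serpinf1 and -0.19 for Serpine2.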

How the results depend on the processing

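No paired analysis was possible because each group had 1 array. In 30 of 40 alternatives the count of members past 4-fold stayed within 1.5 times the reported one. The deposited table holds the same intensity as the main calculation. Its counts and log2 ratios could not change and are among those that stayed the same. For the array labelled G2KO, 7 members became 4 where both arrays had to be above background, 11 at 2-fold and 1 against G1G2WT. For DKO, 5 became 3 with normexp correction (Serpina3n and Serpine2 were lost) or at 10-fold, 8 with no filter and no floor, 12 at 2-fold, and 8 against the array labelled G2WT. Between the arrays labelled WT, 5 became 3 where both had to be above background and 10 at 2-fold. The sign turned when the other wild type was used for Serpinb1a (-0.90) and Serpinf1 (-0.69) on the array labelled G2KO, and for Serpinf1 (0.07) and Serpine2 (-1.55) on DKO. Without scaling, the median log2 ratio over all genes for the array labelled G2KO was 0.32 in place of -0.17, and with median scaling that between the arrays labelled WT was -0.25 in place of -0.07. Of 512 alternative log2 ratios of members, 358 moved by less than 0.131, the tolerance set for a log2 ratio, and 4 turned sign. The count of members with DKO above every other array, which was added after seeing the data, was 3, and 2 with normexp correction or at 10-fold, 5 with no filter and 6 at 2-fold. Apart from the choice of wild type, the cause of these shifts was not tested. Signals near background limit the fold of dim members, and Ccng2 bore out neither knockout label. The labels G2KO and G2WT may also be exchanged, since Xist, En2, Sox2 and Pdgfra ran opposite to the direction the study lists. With the labels exchanged, an alternative added after seeing the data, the 7 G2KO calls turned sign (Plat -2.22, Serpina3g -5.45, Serpina7 -3.41, Serpinb1a -2.86, Serpinb2 -3.57, Serpinf1 -4.76 and Serpine2 3.81), and 1 member in place of 5 passed 4-fold between the arrays then labelled WT; the DKO calls do not use these arrays.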
